A study of Mus musculus with 5 samples.

Results

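The genes described here encode the ubiquitin-conjugating (E2) enzymes, taken as all probe sets annotated with exactly 1 gene symbol that starts with Ube2. The rule gave 33 genes, measured by 81 probe sets, of 18193 genes with 1 symbol on the array, and 26 of the 33 had at least 1 probe set bright enough to be tested. Of the 33 genes, 32 are listed as protein coding, and Ube2d-ps, a pseudogene relative of the Ube2d genes, is listed as a long non-coding RNA. Ube2cbp, which matches the rule by its symbol, encodes a ligase that binds an E2 and no E2 itself. Ube2l3 has 4 probe sets that share their annotation with other genes, so it falls outside the rule. The brightest probe set by the mean over the 5 arrays stands for its gene, except where all probe sets of a gene are compared.

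Levels were read in whole blood of adult, female F1 mice on 5 Affymetrix arrays. Every mouse had FVB/NJ as 1 parent strain. The second parent strain was AKR/J for the group called AKRxFVB F1 here (2 arrays) and DBA/2J for DBAxFVB F1 (3 arrays). No treatment is named beyond Avertin anaesthesia, and the blood was drawn from the heart. The comparison asks which genes differ in basal blood expression between the genotypes. Values are log2 levels, and differences are DBAxFVB F1 minus AKRxFVB F1 on that scale. In unsorted blood, fewer cells of a type and less RNA per cell cannot be told apart. Separate animals are not named for the arrays of a cross, so p-values measure only how these samples vary, and that variation may be technical.

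Ubiquitin is activated by an E1 enzyme, handed to a cysteine of an E2, and transferred from there to a target protein, usually with the help of an E3 ligase. The E2 often sets which kind of chain is built, and some members of the family carry related modifiers such as NEDD8 or ISG15 in place of ubiquitin. The system is prominent in maturing red cells, where it helps to clear ribosomes and other proteins before the cell becomes an erythrocyte. Ube2o and Ube2h are the family members best known for high expression in red cell precursors, and Ube2c is known from dividing cells, where it serves the anaphase-promoting complex.

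The promoters of Ube2c and Ube2h, the genes with the brightest E2 probe sets in this blood, are shown first because both genes are described at length below. They come from RefSeq (GRCm38.p6) and run from 250 bases before to 50 bases after the start of transcription, 5′ to 3′ on the gene's strand. The table held 36 such windows for 27 of the 33 genes. Capitals mark matches, on either strand, to AGATAA (the site of GATA factors), CACCC (the core of the site of the KLF factors), CCAAT (the CCAAT box) and TTTGAA (the cell cycle element CHR). The window of Ube2c lies at chr2:164769679-164769978 on the plus strand. The windows of Ube2h lie on the minus strand at chr6:30304490-30304789 for the first start listed and chr6:30243754-30244053 for the second.
Ube2c: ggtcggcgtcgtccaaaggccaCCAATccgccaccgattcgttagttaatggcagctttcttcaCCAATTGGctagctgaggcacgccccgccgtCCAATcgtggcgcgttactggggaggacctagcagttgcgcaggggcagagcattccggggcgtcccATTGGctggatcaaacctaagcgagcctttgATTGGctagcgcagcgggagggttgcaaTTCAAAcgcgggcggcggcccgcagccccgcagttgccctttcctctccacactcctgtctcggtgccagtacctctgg
Ube2h first start: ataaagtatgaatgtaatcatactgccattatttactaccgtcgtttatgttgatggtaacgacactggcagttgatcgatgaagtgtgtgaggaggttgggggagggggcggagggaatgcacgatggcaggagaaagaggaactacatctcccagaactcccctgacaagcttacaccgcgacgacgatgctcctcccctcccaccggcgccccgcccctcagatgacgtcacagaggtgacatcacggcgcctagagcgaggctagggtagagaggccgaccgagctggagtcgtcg
Ube2h second start: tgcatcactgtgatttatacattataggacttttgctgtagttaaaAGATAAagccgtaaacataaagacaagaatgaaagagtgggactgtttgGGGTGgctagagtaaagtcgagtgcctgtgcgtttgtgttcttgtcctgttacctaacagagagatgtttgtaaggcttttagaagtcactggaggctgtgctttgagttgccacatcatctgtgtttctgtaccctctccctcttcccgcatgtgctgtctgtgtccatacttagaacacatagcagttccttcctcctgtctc
The Ube2c window held 6 CCAAT matches, 2 of which overlap on opposite strands, and 1 TTTGAA match that begins 29 bases before the start. Of 32851 windows of the same length, 37.4% held CCAAT and 17.9% held TTTGAA. Of the 36 Ube2 windows 1 held AGATAA, that of Ube2h at its second start, which also held 1 CACCC match, and it was present in 11.2% of all windows. The first Ube2h window held none of the 4 motifs. CACCC was found in 25 of the 36 Ube2 windows and in 57.5% of all windows. A match describes the letters in the window and does not show that a factor binds there.

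The third DBAxFVB F1 array stood apart from the others, and this touches many of the bright genes below. Its 18 hybridisation controls had a median of 7.99, against 10.01 to 10.12 on the other arrays. Its 3-prime minus 5-prime differences were the highest, at 1.32 for Actb and 1.33 for Gapdh. The AKRxFVB F1 arrays gave 1.22 and 1.03 for Actb and 1.04 and 0.73 for Gapdh. The first and second DBAxFVB F1 arrays gave 0.82 and 0.68 for Actb and 0.62 and 0.58 for Gapdh. Without the third array this measure was thus higher in AKRxFVB F1. Genes with a mean level of 6 or more lay -0.70 (median of 778 genes) from their mean over the 5 arrays on the third DBAxFVB F1 array. Where leaving this array out turned the sign of an E2 gene's difference or moved it by over 1.5 times, the value without it is given beside the result. Defining markers of blood cells were present on every array. Alas2 of red cell precursors read 13.45 to 13.59, the neutrophil gene S100a8 6.23 to 7.43, the platelet gene Pf4 8.53 to 11.30, the T cell gene Cd3e 4.80 to 5.27 and the B cell gene Cd79a 3.37 to 5.07.

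Most E2 genes read lower in DBAxFVB F1 blood, but none of the tested members passed. Limma called 0 of the 26 tested genes at an adjusted p below 0.05, where the whole array also gave 0 of 12421 genes (0% called). Of the 26 genes, 22 read lower in DBAxFVB F1 and 4 higher, against 41.7% of all tested genes on the lower side. After quantile normalization 14 of the 26 were lower, against 41.7% of all genes, and after cyclic loess normalization 15, against 47.6%. The median difference of the 26 genes was -0.35, beside 0.05 for all tested genes, and it was -0.16 beside 0.04 without the third DBAxFVB F1 array. Without that array 19 of the 26 were lower, against 42.2% of all genes, and 5 had an unadjusted p below 0.05 on the lower side, against 7.27%. Over all 33 genes, without a filter on low values, 27 were lower and the median was -0.34. An unadjusted p below 0.05 was found for 5 genes on the lower side, where 6.4% of all genes had one, and for 0 on the higher side, where 3.61% had one. The arrays of the crosses did not overlap for 10 genes on the lower side (11.9% of all genes) and for 1 on the higher side (17% of all genes).

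**Figure D1:**
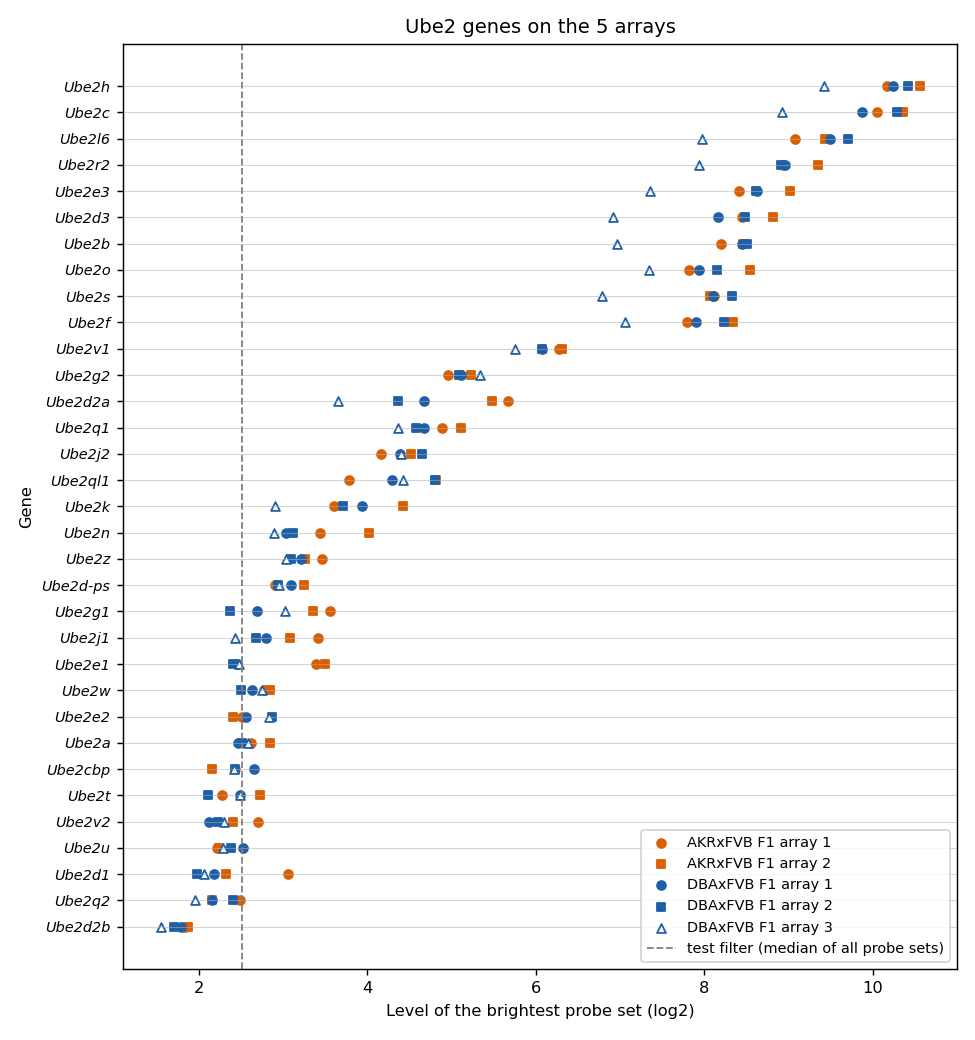
Levels of the 33 Ube2 genes on each array (x axis, log2 level of the brightest probe set; y axis, genes ordered by mean), with AKRxFVB F1 arrays in orange, DBAxFVB F1 arrays in blue, the third DBAxFVB F1 array as an open triangle and the test filter at 2.51 as a dashed line. In the upper 11 genes the open triangle is the lowest point, whereas for Ube2e1 the 3 blue points (2.40 to 2.48) lie together below both orange points (3.39 and 3.50).

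The family fell into a bright part of 11 genes with a mean level of 6 or more and a dim part of 15, a division chosen after the values were seen. Probe sets differ in how well they bind their target, so this order of signals is not an order of transcript abundance. All 11 bright genes read lower in DBAxFVB F1, with a median of -0.35, next to 79.4% and a median of -0.42 among all genes of that level. After quantile normalization 3 of the 11 were lower, against 47.3% of all genes of that level, and after cyclic loess normalization 4, against 56.7%. Without the third DBAxFVB F1 array 8 of 11 were lower, with a median of -0.10, beside -0.06 for all genes of that level. That array was the lowest of the 5 for all 11 bright genes, as it was for 70.8% of all genes of that level. Over the 26 tested E2 genes it was the lowest for 17, and over all tested genes for 23.2%. Among the bright genes only Ube2v1 did not overlap between the crosses, on the lower side, where 22.6% of all genes of that level did not overlap. None of the 11 had an unadjusted p below 0.05, and 11.3% of all genes of that level did, on the lower side. Of the 15 dim genes, 11 read lower, and this count was 11 as well after quantile, median or cyclic loess scaling and without the third DBAxFVB F1 array. In these settings 41.3%, 45.8%, 47% and 41.1% of all genes under 6 were lower. The count was 14 without the first AKRxFVB F1 array and 10 without the second, against 42% and 38.3%. In the main setting the median of the 15 dim genes was -0.24 beside 0.07 for all genes under 6, where 39.1% were lower. On the lower side 5 of the 15 had an unadjusted p below 0.05, against 6.07% of all genes under 6, and 9 did not overlap, against 11.2%. On the higher side 1 did not overlap, against 17.8%.

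**Figure D2:**
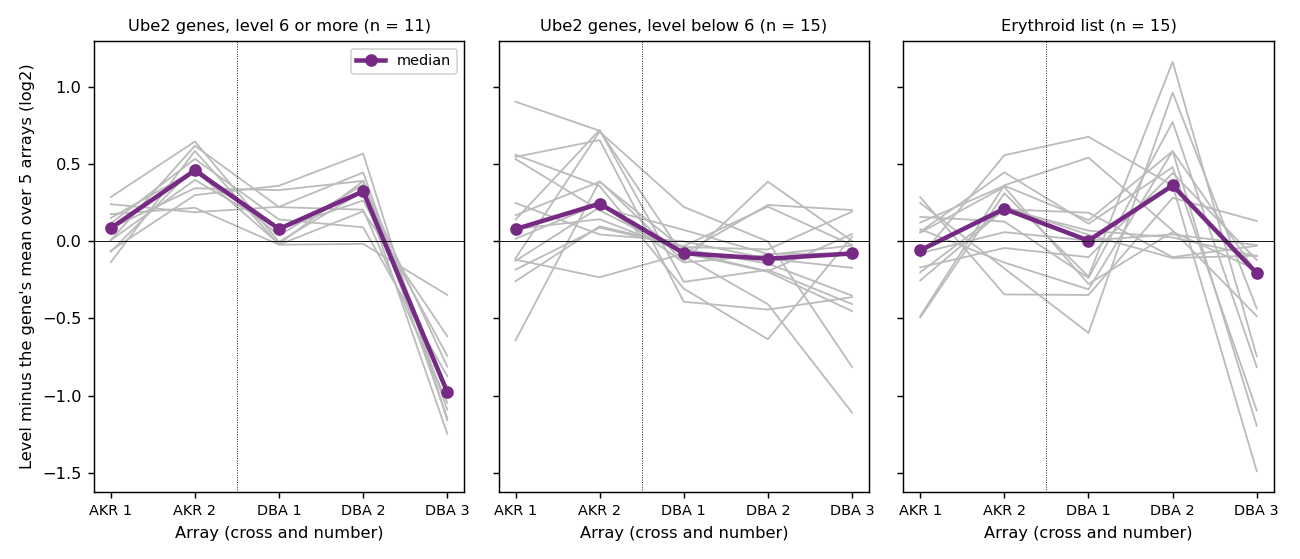
Level of each gene on each array minus its mean over the 5 arrays (y axis, log2), for 11 bright Ube2 genes, 15 dim Ube2 genes and 15 genes of a red cell precursor list; grey lines are genes and the purple line is their median. On the third DBAxFVB F1 array the bright Ube2 genes lay at a median of -0.98, and all genes with a mean level of 6 or more at -0.70. The red cell precursor list, which was not chosen by level and has a median level of 5.51, lay at -0.21.

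Among the genes tied to red cell precursors, Ube2h, whose product works with the CTLH ligase complex, read 10.16 and 10.55 in AKRxFVB F1 and 10.23, 10.42 and 9.41 in DBAxFVB F1. The groups overlapped, and the first DBAxFVB F1 arrays lay between the AKRxFVB F1 arrays. The difference was -0.33 ± 0.43 (SE; limma adjusted p = 0.805), and it was -0.03 without the third DBAxFVB F1 array. Ube2o, a large enzyme that acts as E2 and E3 at once and tags proteins for removal in maturing red cells, read 7.82 and 8.54 in AKRxFVB F1. Its DBAxFVB F1 values were 7.94, 8.15 and 7.34, so the groups again overlapped. The difference was -0.37 ± 0.41 (limma adjusted p = 0.765), and -0.14 without the third array. The sign of both genes turned under quantile and cyclic loess scaling, with Ube2h at 0.17 and 0.21 and Ube2o at 0.17 and 0.0072. For both genes the difference was smaller than its standard error.

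Marker genes of red cell precursors gave the following levels on the same arrays. Of 22 listed genes 15 were tested, 8 of them lower in DBAxFVB F1, with a median of -0.0055, and 0.12 without the third DBAxFVB F1 array. The log2 of the summed level of the 16 listed genes with a probe set was 14.54 and 14.81 in AKRxFVB F1. It was 14.74, 14.74 and 14.55 in DBAxFVB F1, so the groups overlapped. Most of this sum comes from Alas2 and Fech, with mean levels of 13.53 and 13.40. Slc4a1, the anion exchanger of the red cell membrane, read 10.29 and 10.67 against 10.34, 10.71 and 9.13. Xpo7, a nuclear exporter active in erythroblasts, read 9.35 and 9.59 against 9.37, 9.81 and 8.04. These 2 genes were lowest on the third DBAxFVB F1 array, as were 6 of the 15 tested genes of the list in all. Alas2, the first enzyme of heme synthesis in erythroid cells, read 13.50 on that array and 13.45 to 13.59 elsewhere. Platelet markers were low there too, with a list median of -1.30 relative to the mean of the arrays. Of 10 tested platelet genes 9 were lower in DBAxFVB F1, and the log2 of their summed level was 11.89 and 12.93 against 12.37, 12.53 and 10.65. Their median difference was -0.53, and 0.097 without the third DBAxFVB F1 array. The part of cell composition or array quality in the bright E2 values was not tested.

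Cell cycle and cullin partners held 4 tested genes, all lower in DBAxFVB F1, of which Ube2g1 alone was also lower after quantile normalization. Ube2c read 10.04 and 10.35 in AKRxFVB F1 and 9.87, 10.28 and 8.92 in DBAxFVB F1. The groups overlapped, the difference was -0.51 ± 0.47 (limma adjusted p = 0.731), and it was -0.12 without the third DBAxFVB F1 array. It was 0.04 after quantile and 0.02 after cyclic loess normalization. The 10 tested genes of a list of dividing cells had a median of -0.12, with 6 lower. Mki67, a protein of proliferating nuclei, read 6.53 and 7.02 against 6.43, 6.67 and 5.67, and the mitotic kinase gene Cdk1 2.67 and 2.89 against 3.06, 3.19 and 3.33. Ube2s, which extends the chains that Ube2c starts, read 8.12 and 8.06 against 8.10, 8.32 and 6.79, so the first of its DBAxFVB F1 arrays lay between the AKRxFVB F1 arrays and the second above both, and its difference of -0.35 turned to 0.12 without the third. Ube2r2, a partner of SCF ligases, read 8.93 and 9.35 against 8.95, 8.90 and 7.94, a difference of -0.54 ± 0.43 (limma adjusted p = 0.696) that was -0.21 without the third DBAxFVB F1 array and 0.04 after quantile normalization.

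Ube2g1, an E2 of cullin ligases, stood apart from the 3 bright genes of that group. It read 3.56 and 3.36 in AKRxFVB F1 and 2.69, 2.37 and 3.03 in DBAxFVB F1. The groups did not overlap, and the third DBAxFVB F1 array was the highest of its cross. The difference was -0.76 ± 0.21 (limma adjusted p = 0.274), and -0.93 without that array (limma adjusted p = 0.118).

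The broad chain starters, E2s that attach ubiquitin to many targets together with RING ligases, held Ube2e1 and Ube2d2a, the members with the smallest p. Ube2e1 read 3.39 and 3.50 in AKRxFVB F1 and 2.45, 2.40 and 2.48 in DBAxFVB F1. The groups stood clear of each other, with means of 3.45 ± 0.08 (SD, n = 2) and 2.45 ± 0.04 (SD, n = 3). The difference was -0.999 ± 0.14 (SE), a linear ratio of 0.50, with a limma adjusted p of 0.131, and it lay between -1.05 and -0.94 with 1 array left out. Its DBAxFVB F1 mean lay under the filter of 2.51, so the gene entered the test through its AKRxFVB F1 values. At such low values the size of the difference depends on how the authors' method treats dim signals.

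Ube2d2a, a general partner of RING ligases, read 5.67 and 5.48 in AKRxFVB F1 and 4.67, 4.36 and 3.66 in DBAxFVB F1. All 3 DBAxFVB F1 arrays lay below both AKRxFVB F1 arrays, and the third was the lowest. The means were 5.58 ± 0.13 (SD, n = 2) and 4.23 ± 0.52 (SD, n = 3), a linear ratio of 0.39. The difference of -1.35 ± 0.32 (SE) had a limma adjusted p of 0.227, and it was -1.06 without the third array (limma adjusted p = 0.132). Ube2e3, a nuclear E2 of the same subfamily as Ube2e1, read 8.41 and 9.02 against 8.62, 8.61 and 7.36, with the third DBAxFVB F1 array the lowest. Its difference was -0.52 ± 0.49 (limma adjusted p = 0.733), or -0.10 without the third array.

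The third gene of the Ube2e subfamily, Ube2e2, was the single tested member higher in DBAxFVB F1 with no overlap. It read 2.52 and 2.40 in AKRxFVB F1 and 2.56, 2.87 and 2.84 in DBAxFVB F1. The gap between the nearest arrays was small, and its AKRxFVB F1 mean of 2.46 lay under the filter. The difference was 0.30 ± 0.15 (limma adjusted p = 0.553). Ube2w, which attaches ubiquitin to the first residue of proteins, differed by -0.18 and did not overlap.

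E2s of DNA repair and histone ubiquitination held 4 tested genes, all lower, with Ube2b turned to 0.15 after quantile normalization. Ube2n, which builds lysine-63 chains in DNA damage and immune signalling, read 3.45 and 4.03 in AKRxFVB F1 and 3.04, 3.12 and 2.90 in DBAxFVB F1. The groups did not overlap, and the difference was -0.71 ± 0.21 (limma adjusted p = 0.301). It ranged from -1.005 without the first AKRxFVB F1 array to -0.42 without the second. Ube2v1 and Ube2v2 are partners of Ube2n that lack the catalytic cysteine. The brightest probe set of Ube2v1 read 6.27 and 6.31 against 6.07, 6.08 and 5.75, a difference of -0.32 ± 0.28 (limma adjusted p = 0.712) that was -0.22 without the third DBAxFVB F1 array and -0.0011 after quantile normalization. Its other tested probe set overlapped, at -0.28. Ube2v2, below the filter and not tested, read 2.70 and 2.41 against 2.12, 2.23 and 2.30, and its next probe set, at a mean of 2.33, lay in the other direction at 0.14 and overlapped.

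Ube2a and Ube2b, near-identical enzymes that ubiquitinate histone H2B, were read at unlike levels, with means of 2.61 and 8.11. Ube2b read 8.20 and 8.45 in AKRxFVB F1 and 8.44, 8.50 and 6.97 in DBAxFVB F1. Its difference was -0.35, and 0.15 without the third DBAxFVB F1 array. Ube2a, on the X chromosome, read 2.62 and 2.85 against 2.47, 2.52 and 2.58. It did not overlap, with a difference of -0.21 ± 0.14 (limma adjusted p = 0.638), but it lay close to the filter of 2.51. A Ube2b probe set with the same mean of 2.61 differed by -0.10 and overlapped. Ube2t, an E2 of the Fanconi anaemia pathway, was below the filter at a mean of 2.42.

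The E2s of the endoplasmic reticulum, which serve the disposal of misfolded proteins, split by gene. Ube2j1, a membrane-anchored enzyme, read 3.41 and 3.08 in AKRxFVB F1 and 2.80, 2.68 and 2.43 in DBAxFVB F1. The groups did not overlap, and the difference was -0.61 ± 0.18 (limma adjusted p = 0.309). Its relative Ube2j2 read 4.17 and 4.52 against 4.39, 4.65 and 4.40, and Ube2g2 read 4.96 and 5.23 against 5.11, 5.09 and 5.34. Both overlapped between the crosses, at 0.14 ± 0.22 and 0.08 ± 0.24, and Ube2g2 was at 0.0028 without the third DBAxFVB F1 array.

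Enzymes for other modifiers were bright, apart from Ube2z. Ube2l6, which conjugates the interferon-induced modifier ISG15, read 9.07 and 9.43 in AKRxFVB F1 and 9.49, 9.70 and 7.98 in DBAxFVB F1. The first DBAxFVB F1 arrays were the highest of all 5 and the third the lowest. The difference was -0.20 ± 0.56 (limma adjusted p = 0.919), and it turned to 0.34 without the third array, 0.37 after quantile and 0.27 after cyclic loess normalization. Ube2f, an E2 for NEDD8, read 7.80 and 8.34 against 7.90, 8.23 and 7.05. Its difference was -0.34, -0.0035 without the third array and 0.19 after quantile normalization. Ube2z, charged by the E1 enzyme Uba6, read 3.46 and 3.26 against 3.21, 3.10 and 3.04, a difference of -0.24 ± 0.16 (limma adjusted p = 0.635) with no overlap.

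Of the remaining members, Ube2q1 read 4.89 and 5.11 in AKRxFVB F1 and 4.67, 4.58 and 4.37 in DBAxFVB F1. This probe set did not overlap, and the difference was -0.46 ± 0.23 (limma adjusted p = 0.533). The other tested Ube2q1 probe set, at a mean of 3.78, overlapped at -0.03 (limma adjusted p = 0.975), and was at 0.06 without the third DBAxFVB F1 array. Ube2k, which builds lysine-48 chains, read 3.61 and 4.43 against 3.94, 3.72 and 2.90, at -0.50 and -0.19 without the third DBAxFVB F1 array. It overlapped, as did Ube2ql1 (0.21) and Ube2d-ps (-0.08). The 7 genes under the filter, namely Ube2cbp, Ube2t, Ube2v2, Ube2u, Ube2d1, Ube2q2 and Ube2d2b, had means of 1.75 to 2.42 and were not tested. Ube2d1, a relative of Ube2d2a, read 3.06 and 2.32 in AKRxFVB F1 and 2.19, 1.98 and 2.07 in DBAxFVB F1, with only the first AKRxFVB F1 array above the filter.

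With all 5 arrays, probe sets of the same gene mostly gave the same sign. Of 12 genes with at least 2 tested probe sets, all tested probe sets were lower in DBAxFVB F1 for 10, and Ube2e1 and Ube2ql1 had both signs. Without the third DBAxFVB F1 array 6 of the 12 had both signs, and 6 did after quantile normalization. The second Ube2e1 probe set differed by 0.08 at a level of 2.59. Of the 52 tested probe sets 47 were lower, against 43.2% of all probe sets, and 12 had an unadjusted p below 0.05 on the lower side, where 6.79% of all probe sets were called. On the lower side 20 did not overlap between the crosses, against 12.6% of all probe sets. These 12 were 4 of Ube2d3, 3 of Ube2d2a, 2 of Ube2g1 and 1 each of Ube2e1, Ube2j1 and Ube2n. The DBAxFVB F1 means of this Ube2e1 probe set and of the dimmest Ube2d3 probe set lay under the filter. They entered the test through their AKRxFVB F1 values. The same held for the dimmer Ube2n probe set, which is among the 20 but not among the 12. Probe sets of 1 gene share their transcript and are not independent.

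The 4 tested probe sets of Ube2d2a differed by -1.35, -1.05, -0.82 and -0.34, and none overlapped between the crosses. The second of these read 4.39 and 4.33 in AKRxFVB F1 and 3.40, 3.37 and 3.16 in DBAxFVB F1, with a limma adjusted p of 0.144. Ube2d3, whose protein is nearly the same as that of Ube2d2a, was singled out after its values were seen. Its 7 probe sets differed by -0.90 to -0.51, and 5 of them did not overlap. Without the third DBAxFVB F1 array they differed by -0.94 to -0.19. The brightest read 8.45 and 8.81 against 8.16, 8.49 and 6.92 and overlapped, at -0.77 ± 0.51 (limma adjusted p = 0.633) and -0.31 without the third DBAxFVB F1 array. Another, dimmer, read 5.69 and 5.71 against 4.61, 4.93 and 4.86, at -0.90 ± 0.24 (limma adjusted p = 0.251) and -0.94 without that array. The Ube2d genes are alike enough in sequence that their probe sets may share signal, which was not tested.

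**Figure D3:**
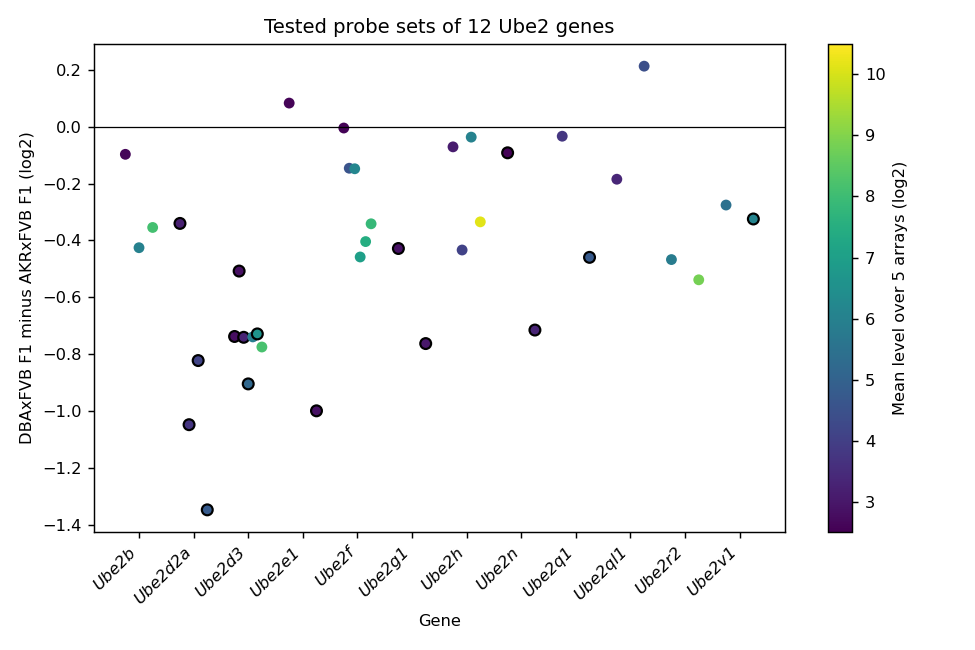
Difference between the crosses (y axis, DBAxFVB F1 minus AKRxFVB F1, log2) for every tested probe set of the 12 Ube2 genes with at least 2 (x axis, within a gene ordered by level), coloured by mean level and ringed in black where the arrays of the crosses did not overlap. All tested probe sets of Ube2d2a and 5 of 7 of Ube2d3 are ringed, and none of Ube2b, Ube2f or Ube2h.

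The 4 probe sets of Ube2h spanned mean levels of 3.11 to 10.16 and differed by -0.43 to -0.04. Those of Ube2b spanned 2.61 to 8.11 over 3 tested probe sets and differed by -0.43 to -0.10, and those of Ube2f 2.55 to 7.87 over 6, at -0.46 to -0.0050. Without the third DBAxFVB F1 array the differences ran from -0.32 to 0.08 for Ube2h. They ran from -0.06 to 0.15 for Ube2b and from -0.29 to 0.20 for Ube2f.

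Markers of white cells were compared as well, since T and B cell genes also read lower in DBAxFVB F1. Of 10 tested T cell genes 8 were lower, and the log2 of their summed level was 8.08 and 8.25 in AKRxFVB F1 and 7.93, 7.69 and 7.78 in DBAxFVB F1. B cell markers, of which 10 of 11 were lower, had a list median of 1.22 and -0.06 relative to the mean of the arrays in AKRxFVB F1 and -0.62, -0.53 and 0.01 in DBAxFVB F1. Their summed log2 level was 8.74 to 9.87 in AKRxFVB F1 and 7.72 to 8.60 in DBAxFVB F1. Monocyte markers, of which 6 of 8 tested genes were lower, overlapped. Their summed log2 levels, over the 9 with a probe set, were 10.29 to 10.73 against 9.35 to 10.36. Of 8 tested neutrophil genes 2 were lower, with a median of 0.11, and of 4 tested heart muscle genes, which a heart puncture can bring, 2 were lower and 2 higher. The higher ones, Actc1 at 0.75 and Myl2 at 0.78, did not overlap between the crosses, as was so for 17% of all genes on that side. Their unadjusted limma p-values were 0.0266 and 0.0498, where 3.61% of all genes were below 0.05 on that side. The AKRxFVB F1 mean of Myl2, 2.39, lay under the filter, so it entered the test through its DBAxFVB F1 values. The median of the heart muscle list was 0.34. The part of these cells in the E2 values was not tested.

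Other genes of the conjugation pathway were taken from a list of modifiers, E1 enzymes, further E2 genes and ligases. Of 72 listed genes 60 had a probe set and 52 were tested, 33 of them lower, with a median of -0.11 (-0.018 without the third DBAxFVB F1 array). Limma called 0 of the 52, and at an unadjusted p below 0.05 there were 6 lower (6.4% of all genes) and 1 higher (3.61%). Ranbp2, a nuclear pore protein that acts as a SUMO ligase, read 4.20 and 3.88 in AKRxFVB F1 and 2.29, 2.79 and 2.62 in DBAxFVB F1. The groups stood apart, and the difference was -1.47 ± 0.20 (limma adjusted p = 0.131). The cullin gene Cul4b differed by -0.97 ± 0.21 and the HECT ligase gene Ube3a by -0.67 ± 0.24. The DBAxFVB F1 means of both lay under the filter, at 2.37 and 2.38, so they entered the test through their AKRxFVB F1 values. Rnf20, the ligase that works with Ube2a and Ube2b on histone H2B, differed by -0.78 ± 0.48, and by -0.28 without the third DBAxFVB F1 array.

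Subunits of the CTLH ligase complex, which takes its ubiquitin from Ube2h, were also measured. Rmnd5a read 8.49 and 8.71 against 8.09, 8.60 and 7.08, and Maea 4.78 and 5.08 against 5.08, 5.09 and 4.16. Both overlapped, with the third DBAxFVB F1 array lowest. Without that array Rmnd5a differed by -0.25 in place of -0.68, and Maea by 0.15 in place of -0.16. Gid8 read 4.01 and 3.98 against 3.90, 3.79 and 3.43 and did not overlap, at -0.29 ± 0.20 (limma adjusted p = 0.661).

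Among 6 tested E1 genes 3 were lower. Nae1, a subunit of the E1 for NEDD8, read 3.59 and 3.57 in AKRxFVB F1 and 2.84, 2.998 and 2.87 in DBAxFVB F1, without overlap and at -0.68 ± 0.15 (limma adjusted p = 0.193). Mocs3, the E1 for the modifier Urm1, read 2.59 and 2.51 against 2.92, 3.11 and 3.09, at 0.49 ± 0.14 (limma adjusted p = 0.309). Sae1, of the E1 for SUMO, and Atg7, of autophagy, overlapped at 0.22 and 0.18. Sae1 was at -0.0048 and Atg7 at 0.13 without the third DBAxFVB F1 array. Of 5 tested modifier genes 3 were lower. Fau, which encodes a ubiquitin-like protein fused to a ribosomal protein, read 9.54 and 8.76 against 8.10, 8.17 and 8.39, without overlap, at -0.93 ± 0.38 (limma adjusted p = 0.449). Sumo3, Urm1 and Nedd8 overlapped, at -0.47, 0.22 and -0.13, and were at -0.59, -0.014 and -0.017 without the third DBAxFVB F1 array.

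E2 and E2-like genes without the family symbol were split, with 3 of 7 tested genes lower and a median of 0.08. Atg3, which conjugates the autophagy modifier LC3, read 2.97 and 3.38 against 2.60, 2.20 and 2.95, at -0.59 ± 0.24 (limma adjusted p = 0.446). Cdc34, a close relative of Ube2r2, lay in the other direction. It read 4.11 and 4.10 in AKRxFVB F1 and 4.23, 4.47 and 5.06 in DBAxFVB F1, with the third DBAxFVB F1 array the highest. The difference was 0.48 ± 0.28 (limma adjusted p = 0.595), and 0.24 without that array. Uevld and Birc6 did not overlap either, at 0.25 and 0.16.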

How the data were processed

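Values deposited by the authors, 1 per probe set and array, were read as log2 levels because they span 1.29 to 14.8; no label states the base. MAS5 and RMA are named in the submitters' processing notes. Which of them gave the values is not given in the sources used here, so background correction and normalization are unknown. Per the labels, RNA was extracted with Trizol and amplified in 2 cycles. Of 45101 probe sets, 932 had several symbols and 9211 none, and 34945 non-control probe sets had 1; 34754 symbols were looked up in RefSeq and 0 changed. After leaving out 64 controls, the 22519 probe sets with a mean at or above the median, 2.51, went into 1 model in R 4.3.3 with limma 3.58.1 (lmFit, eBayes with a variance trend). The model had no term but the cross and left 3 residual degrees of freedom. Tests were two-sided, with Benjamini-Hochberg adjustment over all 22519; errors of differences are limma's moderated standard errors. An exact permutation test of 2 against 3 arrays cannot give a p under 0.1. The fit was tested on simulated data. The number of arrays limits the precision.

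Values on each array are given for up to 6 tested members per direction with the smallest p and no overlap, the 5 with the highest mean, Ube2o, Ube2h and Ube2c, and, in the pathway lists, up to 4 genes per role; other genes with values on each array were chosen after their values were seen. The members and lists were chosen with earlier results of these data known. Alternatives were 3 scalings of the values, 2 filters, 2 variance models, weights on arrays, a block for the replicate number, leaving out each array, and other choices of probe set. Python 3.11.15 with pandas 2.3.3 and matplotlib 3.10.9 made the tables and plots.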

Additional observations from a re-analysis of the deposited data

How the results depend on the processing

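Under all alternatives run, 0 E2 genes passed. The median difference of the E2 genes was -0.018 after quantile normalization, and from -0.57 to -0.16 with 1 array left out. The number of lower genes was 14 of 26 after quantile normalization, 47 of 52 with all probe sets as members, and 19 to 25 of 26 with 1 array left out. Genes whose probe sets had both signs numbered 2, but 5 with array weights or after cyclic loess normalization, 6 after quantile normalization or with the replicate block, 1 with the filter at the 75th percentile, 12 without a filter, and 2 to 6 with 1 array left out. The pathway median was -0.062 with array weights, -0.16 after median centring, -0.069 after quantile normalization, -0.018 with the replicate block and -0.12 to -0.018 with 1 array left out. Signs turned after quantile and cyclic loess normalization for Ube2c (0.037 and 0.0198), Ube2h (0.17 and 0.21), Ube2l6 (0.37 and 0.27) and Ube2o (0.17 and 0.0072), and after quantile normalization for Ube2r2 (0.0376). Ube2l6 also turned with array weights (0.12), with the replicate block and without DBAxFVB F1 array 3 (both 0.34); leaving out 1 array at a time gave it -0.52 to 0.34. The cause was not tested. Of 191 values of single genes under the alternatives, 179 kept their sign and their side of the threshold. The smallest limma adjusted p of Ube2e1 over its alternatives was 0.0639 and the range of its difference was -1.06 to -0.46. The median over its 2 probe sets gave the -0.46. For Ube2n, Ube2d2a and Ube2g1, differences ranged from -1.005 to -0.40, -1.57 to -0.96 and -0.93 to -0.60. The replicate numbers were not taken to pair the samples, as only 2 numbers occur in both crosses. Deviations from the cross means correlated at -0.26 and 0.17 for same-numbered arrays, and from -0.30 to 0.30 for the others. With 2 AKRxFVB F1 arrays, their deviations mirror each other, so these correlations cannot show whether the numbers pair the samples. With the number as a block, number 3 holds 1 array, so the differences equal those without DBAxFVB F1 array 3. A floor for linear values did not apply. Ube2e1, Ube2e2, Ube2g1, Ube2j1, Ube2a, Ube2w and Ube2d-ps fell under the stricter filter, which left 19 of the 26 genes.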

Other observations

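Ube2l3, the main E2 of HECT and RING-between-RING ligases, is covered by 4 probe sets that are annotated with 4 predicted genes as well, so they belong to no single gene. All 4 were lower in DBAxFVB F1, by -0.67, -0.55, -0.41 and -0.22, with limma adjusted p-values of 0.554 to 0.745. Without the third DBAxFVB F1 array they differed, in the same order, by -0.35, -0.27, -0.31 and -0.06. The brightest read 5.64 and 5.77 in AKRxFVB F1 and 5.25, 5.46 and 4.39 in DBAxFVB F1. On the lower side 2 of the 4 did not overlap between the crosses, against 12.6% of all probe sets.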
